A study of Homo sapiens with 6 samples.

Results

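Heat shock chaperones of the cytosol and the mitochondria were followed in C4-2 cells with and without an active form of the transcriptional coactivator YAP1. C4-2 is an established human prostate cancer line that descends from LNCaP and grows without androgen. The chaperones are the genes whose symbol belongs to the HSPA, HSPB, HSPD, HSPE, HSPH, HSP90A or DNAJA to DNAJC series, without the endoplasmic reticulum (ER) chaperones HSPA5, DNAJB9, DNAJB11, DNAJC3 and DNAJC10. The deposited table lists 68 such genes among 26819, and 52 of them reached 1 TPM in at least 3 of 6 libraries, as did 14833 genes in all. TPM is a read number per gene length, set relative to a total shared by all libraries, so levels can be compared between genes. Both groups carried Tet-O-YAP5SA, which doxycycline turns on and whose YAP1 lacks the serines that LATS kinases phosphorylate, and were grown in RPMI-1640 with 10% FBS. The Dox group has 3 libraries of cells given doxycycline for 24 hours, at a dose the labels write as 0.2 mg/ml, a unit that is in doubt. The Ctrl group has 3 libraries of the same cells without doxycycline. No library is from cells that lack the transgene and received doxycycline, so effects of the drug and of YAP5SA cannot be told apart. The labels do not say whether the line is 1 clone or whether the libraries come from separate cultures, so p-values measure only the spread between these libraries.

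Chaperones bind unfolded or partly folded proteins and let them fold, hold them soluble or pass them on for degradation. HSP70 proteins do so in cycles of ATP hydrolysis that J-domain proteins (the DNAJ families) start and nucleotide exchange factors such as the HSP110 and BAG proteins reset, HSP90 acts late on clients such as steroid receptors and kinases, small heat shock proteins hold unfolded proteins without ATP, and HSPD1 with HSPE1 forms the folding chamber of the mitochondrial matrix. Many of these genes are induced together by the factor HSF1 when cells are heated, and HSP90 with its co-chaperones keeps steroid receptors able to bind hormone, for which the system is known in prostate cancer.

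Recovered reads came to 24960546 to 29261658 per Dox library and 27591707 to 28804833 per Ctrl library. YAP1 measured 263, 277 and 268 TPM in Dox, against 52.7, 57.9 and 59.9 TPM in Ctrl, and the YAP1 target CTGF averaged 398 ± 13.1 TPM in Dox against 0.350 ± 0.140 TPM in Ctrl (SD, n = 3 each). All 9 luminal prostate markers, KLK3 and KLK2 among them, were above 1 TPM in at least 3 libraries. Of the markers of other cells, 1 of 3 basal, 0 of 4 stromal, 0 of 2 endothelial and 0 of 3 immune genes reached that level. The summed luminal markers lay between 4428 and 4480 TPM in Dox and between 5531 and 5577 TPM in Ctrl. The single markers moved in both directions, with 4 called higher and 5 lower in Dox by the test given below. KLK3, the most abundant of them, averaged 1795 TPM in Dox and 3297 TPM in Ctrl and weighs most in the sum. The part of the luminal markers in the results below was not tested. In bulk RNA, a change in the share of cells that express a gene and a change per cell cannot be told apart.

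The chaperones did not move as 1 block. At an adjusted p under 0.05 (limma on log2(TPM + 1), Benjamini-Hochberg adjustment over all 14833 tested genes, used for every call below), 18 of the 52 scored chaperones rose in Dox and 15 fell, while 19 did not pass. Of all tested genes 53.7% were called, 35.9% higher and 17.8% lower, so the share of chaperones that rose (34.6%) was near that of all genes and the share that fell was 28.8%. The libraries of the groups did not overlap for 40 chaperones (76.9%), against 61.9% of all tested genes. Only 4 chaperones were called with a log2 fold change past 1 or -1, as were 4.89% of all tested genes: HSPB8, HSPB11 and DNAJB4 rose and HSPB1 fell. The median log2 fold change of the chaperones was 0.01, against 0.10 for all tested genes.

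The balance between the directions depends on how libraries are scaled. After median-ratio rescaling, which brings the median of all genes to 0.00, 16 chaperones were higher and 20 lower. After quantile normalization, with a median of -0.04, 15 were higher and 23 lower, of 3536 higher and 4348 lower genes in all. Of the 33 calls, 28 kept their call and direction under every alternative in which the gene was tested (15 higher, 13 lower). The exceptions were DNAJA1, DNAJC13, DNAJC16, HSP90AA1 and HSPA6. Among the calls that held, quantile normalization lowered the log2 fold change of HSPA4L to 0.23, DNAJC9 to 0.24, DNAJC25 to 0.22 and DNAJC30 to 0.21, and gave -0.35 for DNAJA3. It also gave -0.87 for HSPB1, 0.97 for DNAJB4 and -0.34 for HSPD1, so HSPB1 and DNAJB4 were then not past 1 or -1.

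**Figure D1:**
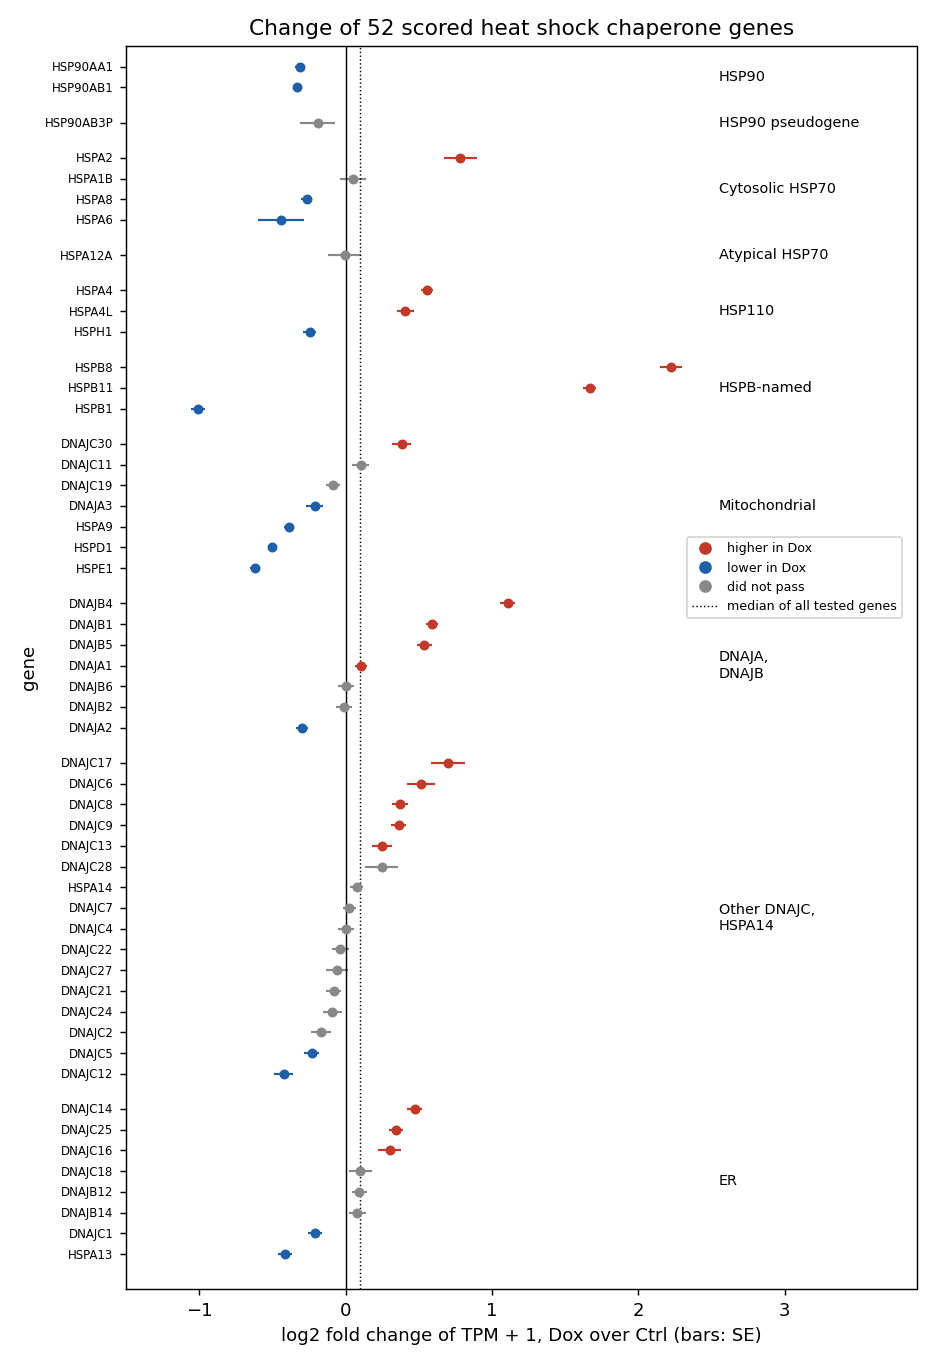
Log2 fold change of TPM + 1, Dox over Ctrl, with its SE for the 52 scored chaperones, grouped by role (red, higher in Dox; blue, lower in Dox; grey, did not pass). Points reach 2.22 for HSPB8 and -1.01 for HSPB1, and the dotted line marks the median of all tested genes (0.10).

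Most of the abundant chaperones fell. All 10 chaperones with a mean of at least 200 TPM were called, 3 higher and 7 lower, and HSPA8, both HSP90 genes, HSPD1, HSPE1, HSPB1 and HSPA9 made up the 7. Among the 42 below that level, 15 were higher, 8 lower and 19 did not pass. The same level split moves all genes: of 881 tested genes with a mean of at least 200 TPM, 25.3% were higher and 49.1% lower, with a median log2 fold change of -0.09. Summed over all 68 genes, the chaperones held 10554, 10340 and 10507 TPM in the Dox libraries, against 12651, 13043 and 12643 TPM in the Ctrl libraries, a ratio of 0.819. The 5 most abundant genes, HSP90AB1, HSP90AA1, HSPA8, HSPD1 and HSPB1, made up 70.5, 70.9 and 71.5% of this sum in Dox, against 77.4, 77.2 and 77.2% in Ctrl. The chaperone transcript pool was thus smaller in every Dox library than in every Ctrl library, with a smaller part of it from those 5 genes.

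**Figure D2:**
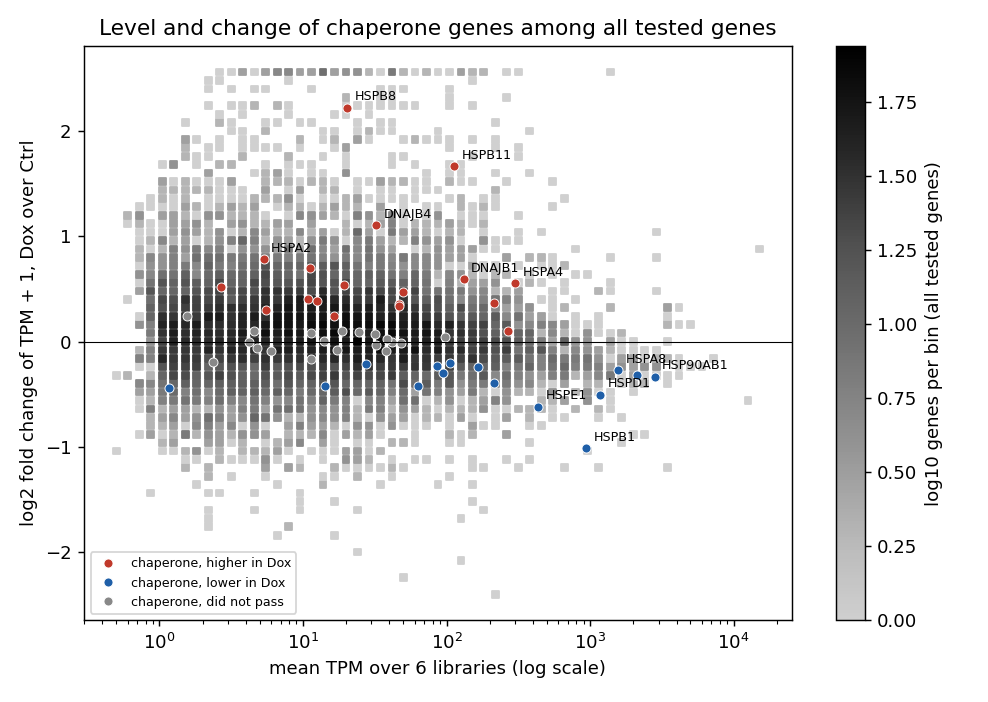
Log2 fold change of TPM + 1, Dox over Ctrl, against mean TPM over the 6 libraries (log axis), with all 14833 tested genes as grey bins (darker, more genes; larger rises drawn at the upper edge) and the 52 chaperones as points. The 7 called falls above 200 TPM lie at the lower right, and HSPB8, HSPB11 and DNAJB4 stand above the other chaperones.

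The largest rise and the largest fall of the set were in small heat shock proteins, HSPB8 and HSPB1. HSPB1 (HSP27), which binds unfolded proteins and actin, had 593, 606 and 675 TPM in Dox, against 1252, 1274 and 1247 TPM in Ctrl. Every Dox library was below every Ctrl library, a 2.01-fold lower mean (log2 fold change -1.01 ± 0.05 SE, adjusted p = 2.3e-06). HSPB8 (HSP22), which works with BAG3 in the selective autophagy of misfolded proteins, had 33.4, 35.7 and 33.0 TPM in Dox, against 6.32, 7.22 and 6.01 TPM in Ctrl. It rose 5.22-fold (2.22 ± 0.07, adjusted p = 3.3e-07), and the groups lay far apart. Within a library the TPM ratio of HSPB1 to HSPB8 was 18.4 ± 1.85 in Dox and 194 ± 16.0 in Ctrl (SD, n = 3 each). HSPB11 had 180, 173 and 167 TPM in Dox, against 52.7, 53.0 and 55.9 TPM in Ctrl (3.21-fold; 1.67 ± 0.04, adjusted p = 1.1e-07). It shares the series' name but is IFT25, a subunit of the intraflagellar transport complex of cilia, and is named so in RefSeq. HSPB2, HSPB6 and HSPB9 were not scored. HSPB2 had 0.443, 0.560 and 0.377 TPM in Dox (5 to 7 reads per library) and was listed at 0 in all 3 Ctrl libraries, and without the filter on low values it was called higher (adjusted p = 0.00116). Of the exon bases of HSPB2, 53.9% are shared with HSPB2-C11orf52 on the same strand, and CRYAB, described below, overlaps it on the other strand. Whether the counting used strand is not stated, so the source of the few HSPB2 reads is uncertain. HSPB6 and HSPB9 overlapped between groups, with highest values of 0.551 and 0.217 TPM. CRYAB (αB-crystallin), a small heat shock protein outside the symbol rule, had 28.7, 29.5 and 27.3 TPM in Dox, against 2.72, 2.46 and 2.79 TPM in Ctrl (10.7-fold; 3.01 ± 0.06, adjusted p = 4.6e-08).

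**Figure D3:**
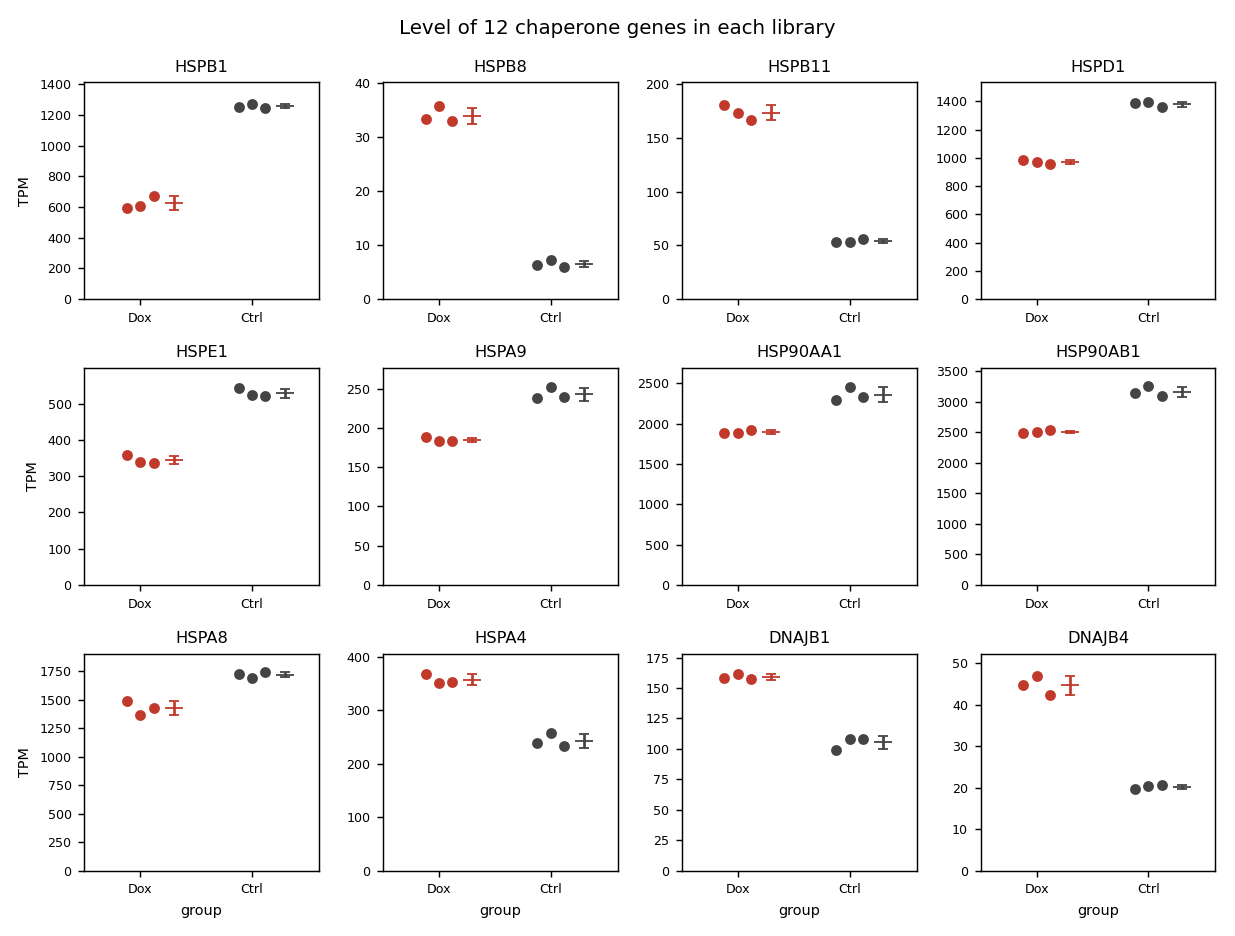
TPM of 12 chaperone genes in each Dox (left, red) and Ctrl (right, grey) library, with mean ± SD (n = 3) beside the points; each panel's axis starts at 0. All 12 are called chaperones. In all 12 panels the Dox and Ctrl libraries do not overlap, as for 76.9% of the scored chaperones and 61.9% of all tested genes. HSPB1 lies at 593 to 675 TPM in Dox and at 1247 to 1274 TPM in Ctrl.

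In the mitochondrial group 4 of 7 scored genes fell, 1 rose and 2 did not pass, with a median log2 fold change of -0.21. Among all tested genes 17.8% were lower and 35.9% higher. HSPD1, HSPE1 and HSPA9 belong to the chaperones with a mean of at least 200 TPM, a level at which 49.1% of all tested genes were lower. The part of the level in their falls was not tested. HSPD1 (HSP60), the ring of the folding chamber, had 988, 971 and 958 TPM in Dox, against 1385, 1395 and 1358 TPM in Ctrl (ratio 0.705; -0.50 ± 0.03, adjusted p = 3.3e-06). Its lid HSPE1 (HSP10) had 358, 338 and 337 TPM in Dox, against 543, 523 and 521 TPM in Ctrl (ratio 0.651; -0.62 ± 0.03, adjusted p = 5.2e-06). Both stood lower in every Dox library, and the ratio of HSPD1 to HSPE1 within a library was 2.83 ± 0.062 in Dox and 2.61 ± 0.059 in Ctrl (SD, n = 3 each). HSPE1 shares exons with the readthrough gene HSPE1-MOB4, listed at 754 ± 28.4 TPM in Dox and 1076 ± 31.0 TPM in Ctrl, so the split of reads between them is uncertain. HSPE1 also shares 14.2% of its exon bases with HSPD1 on the other strand, which is 6.62% of those of HSPD1. Whether the counting used strand is not stated, so the levels of HSPD1 and HSPE1 may not be fully separate. HSPA9 (mortalin), the matrix HSP70 that pulls imported proteins in, had 188, 184 and 184 TPM in Dox, against 238, 253 and 239 TPM in Ctrl (-0.39 ± 0.03, adjusted p = 5.1e-05). Its J-domain partner DNAJA3 had 25.0, 25.6 and 25.4 TPM in Dox, against 27.9, 32.2 and 28.7 TPM in Ctrl, a fall of smaller size (-0.21, adjusted p = 0.0169). DNAJC30, a mitochondrial J-domain protein tied to respiration, moved the other way, with 13.5, 13.9 and 15.2 TPM in Dox and 11.2, 10.7 and 10.1 TPM in Ctrl (0.38, adjusted p = 0.00191). It shares 14.5% of its exon bases with BUD23. DNAJC11, of the inner membrane organising system, and DNAJC19, of the import motor, did not pass (0.10 and -0.09), and DNAJC19 was called lower after median-ratio rescaling, quantile normalization and in the fit on recovered reads. DNAJC15 was not scored, with at most 0.0980 TPM.

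Mitochondrial genes outside the symbol rule were listed for comparison: TRAP1, GRPEL1, GRPEL2, HSCB, CLPB, CLPP, CLPX and LONP1, which are partners of HSPA9, a mitochondrial HSP90, a disaggregase (CLPB) and proteases or their subunits. None of the 8 rose and 7 fell, beside 35.9% higher and 17.8% lower among all tested genes. TRAP1, the mitochondrial HSP90, had 75.8, 80.2 and 81.0 TPM in Dox, against 114, 115 and 113 TPM in Ctrl (-0.53 ± 0.04, adjusted p = 1.6e-05). GRPEL1, the nucleotide exchange factor of HSPA9, averaged 58.8 ± 0.384 TPM in Dox and 78.9 ± 0.997 TPM in Ctrl (SD, n = 3 each; -0.42, adjusted p = 2.8e-05). HSCB, which helps to build iron-sulfur clusters, did not pass (-0.08, adjusted p = 0.267).

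Both cytosolic HSP90 genes fell. HSP90AB1, the constitutive form, was the most abundant chaperone of the set, with 2491, 2499 and 2528 TPM in Dox, against 3146, 3246 and 3086 TPM in Ctrl (ratio 0.793; -0.33 ± 0.03, adjusted p = 4.1e-05). HSP90AA1, the stress-inducible form, had 1881, 1883 and 1924 TPM in Dox, against 2288, 2459 and 2333 TPM in Ctrl (ratio 0.803; -0.32 ± 0.03, adjusted p = 0.00014). Neither gene's groups overlapped, but under quantile normalization HSP90AB1 stood at -0.21 (adjusted p = 0.0402) and the HSP90AA1 call ended (-0.04, adjusted p = 0.444). The ratio of HSP90AB1 to HSP90AA1 within a library was 1.32 ± 0.0067 in Dox and 1.34 ± 0.031 in Ctrl (SD, n = 3 each), a difference within the spread. Of all 50-base stretches of HSP90AB1 16.6% also occur in other genes, as do 11.3% of those of HSP90AA1. Of the 5 processed HSP90 pseudogenes only HSP90AB3P was scored, and it did not pass (2.21, 1.94 and 2.25 TPM in Dox, against 2.21, 2.46 and 3.14 TPM in Ctrl). The highest values of the others were 0.107 TPM for HSP90AA4P, 0.0551 TPM for HSP90AA5P, 0.417 TPM for HSP90AA6P and 0.420 TPM for HSP90AB2P.

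Among the cytosolic HSP70 genes the direction differed from gene to gene. HSPA8 (HSC70), the constitutive form, had 1492, 1371 and 1426 TPM in Dox, against 1726, 1696 and 1742 TPM in Ctrl (ratio 0.831; -0.27, adjusted p = 0.00045). Under quantile normalization its fall was smaller (-0.12, adjusted p = 0.0126). HSPA1B, a main stress-inducible HSP70, had 94.8, 100 and 101 TPM in Dox, against 81.9, 107 and 99.2 TPM in Ctrl. The groups overlapped and the gene did not pass (0.05 ± 0.09, adjusted p = 0.685, 95% interval of the log2 fold change -0.16 to 0.26). Its near-identical copy HSPA1A was listed at 0.435 TPM or less and not scored. Since 73.5% of the 50-base stretches of HSPA1B also occur in other genes, the split of reads between the copies is uncertain. HSPA2, known from the testis and also found in many tissues, rose 1.91-fold, with 6.54, 7.01 and 7.36 TPM in Dox and 2.94, 4.18 and 3.85 TPM in Ctrl (0.78 ± 0.11, adjusted p = 0.00075). HSPA6, which is induced strictly by stress, was low everywhere, with 0.808, 0.913 and 0.730 TPM in Dox, against 1.05, 1.48 and 1.96 TPM in Ctrl (-0.44 ± 0.16, adjusted p = 0.0438). It rests on 16 to 44 reads per library, its call was lost in 7 alternatives, among them when any 1 of Dox 1, Dox 2, Dox 3, Ctrl 2 or Ctrl 3 was left out, and 45.5% of its 50-base stretches occur in the pseudogene HSPA7. HSPA1L, HSPA7 and HSPA12B were not scored (highest values 0.780, 0.0693 and 0.228 TPM), and the distant relative HSPA12A did not pass.

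The HSP110 proteins, which exchange the nucleotide of HSP70 and prevent aggregation, were split too. HSPA4 had 369, 351 and 353 TPM in Dox, against 238, 258 and 233 TPM in Ctrl (1.47-fold; 0.56, adjusted p = 3.1e-05). HSPA4L rose as well, with 12.56, 12.97 and 12.02 TPM in Dox, against 8.76, 9.31 and 9.53 TPM in Ctrl (0.41, adjusted p = 0.00086). HSPH1 (HSP105), the heat-inducible member, fell, with 156, 147 and 155 TPM in Dox, against 174, 191 and 179 TPM in Ctrl (-0.25, adjusted p = 0.00213). None of the 3 overlapped between groups, and within a library HSPA4 stood at 2.34 ± 0.057 times HSPH1 in Dox and at 1.34 ± 0.031 times HSPH1 in Ctrl (SD, n = 3 each).

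**Figure D4:**
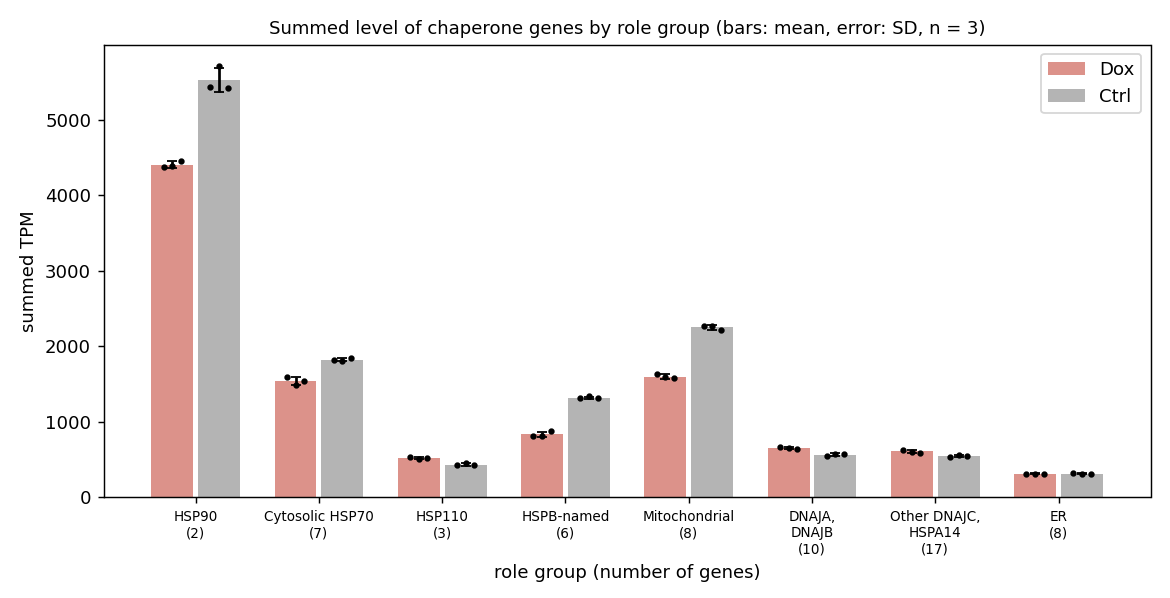
Summed TPM of each role group in Dox (left bar) and Ctrl (right bar) libraries, with bars at the mean, error bars of 1 SD (n = 3) and a point per library. The HSP90 sum was 4402 ± 43.4 TPM in Dox and 5520 ± 161 TPM in Ctrl, the mitochondrial sum 1598 ± 28.2 TPM in Dox and 2249 ± 31.2 TPM in Ctrl, while the HSP110 sum was 523 ± 13.2 TPM in Dox and 433 ± 21.2 TPM in Ctrl.

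Of the cytosolic J-domain proteins of the DNAJA and DNAJB types, which bring clients to HSP70, 4 of 7 scored genes rose, 1 fell and 2 did not pass. Among all tested genes 35.9% rose and 17.8% fell. DNAJB1 (HSP40), the stress-inducible partner of HSP70 in taking aggregates apart, had 158, 162 and 157 TPM in Dox, against 99.2, 108 and 108 TPM in Ctrl (1.51-fold; 0.59 ± 0.04, adjusted p = 1.9e-05). DNAJB4, of the same subtype, had 44.8, 46.9 and 42.3 TPM in Dox, against 19.7, 20.3 and 20.6 TPM in Ctrl (2.21-fold; 1.11 ± 0.05, adjusted p = 1.7e-06). DNAJB5, also of that subtype, rose 1.48-fold (0.54, adjusted p = 7.4e-05). All 3 lay higher in every Dox library than in any Ctrl library, and the TPM ratio of HSPA8 to DNAJB1 within a library was 9.0 ± 0.49 in Dox and 16.4 ± 0.91 in Ctrl (SD, n = 3 each). DNAJA1, a partner of HSC70, had 288, 271 and 271 TPM in Dox, against 251, 267 and 254 TPM in Ctrl (0.10 ± 0.04, adjusted p = 0.0496). That call was lost in 12 of 15 alternatives, among them without Dox 1, Dox 2, Dox 3, Ctrl 1 or Ctrl 3, and the direction turned after median-ratio rescaling (-0.01). DNAJA2 fell, with 88.9, 82.2 and 84.5 TPM in Dox, against 103, 103 and 108 TPM in Ctrl (-0.30, adjusted p = 0.00065). DNAJB2, of which neurons have much, and DNAJB6, which keeps polyglutamine proteins from aggregating, overlapped between groups and did not pass (-0.01 and 0.00), although both were called lower after quantile normalization. DNAJA4, DNAJB3 and DNAJB13 were not scored, with at most 0.0405, 0.359 and 0.154 TPM.

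The other DNAJC genes, whose proteins recruit HSP70 to single tasks, were scored together with the ribosome-bound HSPA14. Of these 16 genes 5 rose, 2 fell and 9 did not pass, and after median-ratio rescaling 4 were higher and 6 lower. The main shares of 31.2% higher and 12.5% lower stand beside 35.9% and 17.8% of all tested genes. DNAJC6 (auxilin), which strips clathrin coats with HSC70, rose 1.63-fold at a low level, with 3.37, 3.44 and 3.24 TPM in Dox and 1.91, 2.32 and 1.92 TPM in Ctrl (0.51 ± 0.10, adjusted p = 0.00271). DNAJC17, a splicing-related protein, had 16.1, 13.2 and 12.8 TPM in Dox, against 8.83, 9.03 and 6.93 TPM in Ctrl (1.70-fold; 0.70 ± 0.12, adjusted p = 0.00164). It shares 20.4% of its exon bases with a gene on the other strand, and whether the counting used strand is not stated in these sources. DNAJC8, of the spliceosome, rose 1.29-fold (0.37, adjusted p = 0.00088). The histone chaperone DNAJC9 rose by the same factor (0.36, adjusted p = 0.00076). DNAJC9 shares 24.0% of its exon bases with FAM149B1 on the other strand. DNAJC13, of endosome sorting, rose 1.2-fold (0.25, adjusted p = 0.0195), but its call ended after both rescalings and without Dox 1, Dox 2, Ctrl 1 or Ctrl 3. DNAJC12, a partner of the aromatic amino acid hydroxylases, fell, with 13.1, 11.2 and 11.8 TPM in Dox, against 16.7, 16.1 and 16.4 TPM in Ctrl (-0.42, adjusted p = 0.00106). DNAJC5, the cysteine string protein of secretory vesicles, fell too, with 74.0, 83.7 and 78.8 TPM in Dox, against 89.4, 96.6 and 92.4 TPM in Ctrl (-0.23, adjusted p = 0.00675). The pair that forms the ribosome-associated complex for nascent chains did not pass: DNAJC2 had 10.97, 10.65 and 10.22 TPM in Dox, against 11.18, 13.13 and 11.94 TPM in Ctrl (-0.17 ± 0.07, adjusted p = 0.0748), and HSPA14 had 33.24, 33.21 and 32.04 TPM in Dox, against 30.12, 31.36 and 31.96 TPM in Ctrl. DNAJC2 was called lower after both rescalings, without Ctrl 1 and in the fit on recovered reads. In the main fit DNAJC4, DNAJC7, DNAJC21, DNAJC22, DNAJC24, DNAJC27 and DNAJC28 did not pass either. Of these, DNAJC21, DNAJC22 and DNAJC24 were called lower after both rescalings, and DNAJC21 also in the fit on recovered reads. DNAJC27 was called lower after quantile normalization, and DNAJC28 higher without the variance trend. DNAJC5B was not scored (at most 0.0762 TPM).

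The symbol rule also takes in 8 proteins that sit in the ER or its membrane. With IFT25, the nuclear proteins and the pseudogenes among the symbols, the set is thus wider than cytosolic and mitochondrial chaperones. Of these, DNAJC14 (0.47, adjusted p = 0.00023), DNAJC25 (0.34, adjusted p = 0.00055) and DNAJC16 (0.30, adjusted p = 0.0135) rose, the last with a call that ended without Dox 2 and after quantile normalization. HSPA13 (-0.42, adjusted p = 0.00024) and DNAJC1 (-0.21, adjusted p = 0.00668) fell, and DNAJB12, DNAJB14 and DNAJC18 did not pass. DNAJC14 shares 23.2% of its exon bases with a gene on the same strand and DNAJC25 13.8% with a readthrough gene. Their summed level is shown as the last pair of bars in the plot of role groups.

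The factors that drive the heat shock response and the co-chaperones were described from a list of 59 genes, none of them a member, of which 57 were scored. In this list 11 rose, 23 fell and 23 did not pass, with a median log2 fold change of -0.09 against 0.10 for all genes. The shares were 19.3% higher and 40.4% lower, beside 35.9% and 17.8% of all tested genes. Rescaling moved the count to 6 higher and 39 lower (median-ratio) or 8 higher and 38 lower (quantile), and 7 were higher without Dox 2 or without Ctrl 3. HSF1, the master regulator, averaged 50.4 ± 1.72 TPM in Dox and 52.3 ± 2.83 TPM in Ctrl (SD, n = 3 each) and did not pass (-0.05, adjusted p = 0.396). HSF2 did not pass either (-0.03, adjusted p = 0.629). After median-ratio rescaling both were called lower, HSF1 at -0.17 (adjusted p = 0.0093) and HSF2 at -0.14 (adjusted p = 0.0343).

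BAG3, which links HSP70 to HSPB8 and to autophagy, rose with 243, 260 and 243 TPM in Dox, against 131, 142 and 137 TPM in Ctrl (1.82-fold; 0.86 ± 0.04, adjusted p = 2.6e-06). Since HSPB8 rose by a larger factor, the mean TPM ratio of BAG3 to HSPB8 within a library was 7.31 in Dox and 21.0 in Ctrl. Prefoldin subunit VBP1 (0.55, adjusted p = 2.1e-05) and the HSP90 co-chaperone TTC4 (0.48, adjusted p = 0.00095) rose as well.

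On the falling side stood FKBP5, an HSP90 co-chaperone of steroid receptors and known androgen target, with 55.3, 61.4 and 56.5 TPM in Dox, against 137, 156 and 139 TPM in Ctrl (ratio 0.400; -1.30 ± 0.06, adjusted p = 1.9e-06). It was followed by TRAP1, described above, by prefoldin subunit PFDN2 (-0.46, adjusted p = 5.2e-05) and by GRPEL1. The ubiquitin ligase STUB1 (CHIP), which tags clients of HSP70 and HSP90, fell to 149 ± 7.11 TPM in Dox, against 191 ± 4.3 TPM in Ctrl (SD, n = 3 each; -0.36, adjusted p = 0.00024). AHSA1, the activator of the HSP90 ATPase, fell (-0.22, adjusted p = 0.00202), as did STIP1 (HOP), which joins HSP70 to HSP90, by a small amount (-0.07, adjusted p = 0.0396). CDC37, which brings kinases to HSP90, did not pass (-0.11, adjusted p = 0.0623), but was called lower after median-ratio rescaling (-0.22, adjusted p = 0.0062). In the chaperonin CCT, which folds actin and tubulin, 6 of 8 subunits fell. Every subunit averaged above 200 TPM in both groups, and of all tested genes at that level 49.1% were lower and 25.3% higher. The part of the level in the CCT count was not tested. CCT8 rose (0.18, adjusted p = 0.00484), a call that ended after median-ratio rescaling (0.07, adjusted p = 0.261). The CCT8 call held under quantile normalization (0.28, adjusted p = 0.000476) and in the fit on recovered reads (0.14, adjusted p = 0.0029).

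Genes known to be induced by HSF1 in heated human cells were taken as a further list of 26, of which 25 were scored. Here 7 rose, 16 fell and 2 did not pass, with a median log2 fold change of -0.26. The shares were 28.0% higher and 64.0% lower, beside 35.9% and 17.8% of all tested genes. The 13 scored chaperones in it gave 4 rises and 8 falls, and its 12 other genes 3 rises and 8 falls. Of those other genes, BAG3, CRYAB, CHORDC1, AHSA1, STIP1, FKBP4 and CACYBP are also in the co-chaperone list, so their calls enter both counts. CRYAB, DNAJB4, BAG3 and DNAJB1 were the largest rises, and HSPB1, HSPE1, HSPD1 and HSPA6 the largest falls. The list includes HSP90AB1, HSP90AA1, HSPA8, HSPD1 and HSPB1, the 5 most abundant chaperones, and abundant genes fell more often in all genes, as given above; the part of the level in these counts was not tested.

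The DNA before the start of these genes was read for the heat shock element, the site that HSF1 binds as inverted repeats of GAA. The pattern searched was the pair GAANNTTC, which is its own reverse complement, in windows from 250 bases before to 50 after each start in RefSeq (GRCh38.p14). Of 35116 windows of all genes 2377 (6.77%) hold it, as do 13 of the 65 windows of the 47 scored chaperones that have one. The 12 chaperones with the pair comprised 4 that rose (DNAJA1, DNAJB1, DNAJC6, HSPB8), 6 that fell (HSP90AA1, HSP90AB1, HSPA6, HSPA8, HSPB1, HSPD1) and 2 that did not pass (DNAJB6, HSPA1B). A further repeat next to the pair (GAANNTTCNNGAA, or TTCNNGAANNTTC on the other strand, each of which holds the pair) was found in 0.49% of all windows and in 10.8% of those of scored chaperones. Of the 7 chaperones with it 5 fell, 1 rose and 1 did not pass. Among all scored chaperones 34.6% rose and 28.8% fell, and among all tested genes 35.9% and 17.8%. HSP90AA1, HSP90AB1, HSPA8 and HSPD1, which hold the further repeat, average above 200 TPM, a level at which 49.1% of all tested genes were lower. The part of the level in these counts was not tested. The pair thus occurred before genes of either direction. Shown are 30 bases around it for 5 genes that fell, 2 that rose and HSPA1B, 5′ to 3′ on the gene's strand, with the fixed letters of the pair in capitals.
HSPB1 (fell; chr7:76302480-76302509, plus strand): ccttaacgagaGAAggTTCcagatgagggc
HSPD1 (fell; chr2:197500061-197500090, minus strand): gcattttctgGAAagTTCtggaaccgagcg
HSPA8 (fell; chr11:123062168-123062197, minus strand): ggccccttctgGAAggTTCtaagatagggt
HSP90AA1 (fell; chr14:102087109-102087138, minus strand): gggttcttccgGAAggTTCgggaggcttct
HSP90AB1 (fell; chr6:44247825-44247854, plus strand): agattgttctgGAAgcTTCtggattctggc
HSPB8 (rose; chr12:119178832-119178861, plus strand): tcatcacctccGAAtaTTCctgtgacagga
DNAJB1 (rose; chr19:14518456-14518485, minus strand): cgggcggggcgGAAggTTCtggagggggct
HSPA1B (did not pass; chr6:31827622-31827651, plus strand): cgaaacccctgGAAtaTTCccgacctggca
The pair shown begins 182 bases before the start in HSPB1, 88 in HSPB8, 77 in DNAJB1 and 50 in HSPA8. HSPB8, DNAJB1, HSPA8 and HSP90AB1 hold further pairs in their windows, which are not shown. A match of letters is a description and does not show that a factor binds there.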

How the data were processed

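Stranded mRNA libraries (TruSeq) of C4-2 cells were sequenced, with groups and replicate numbers read off the titles. The submitters' processing notes name FastQC 0.11.2, STAR 2.5.3a, featureCounts and hg19. The authors' notes also name edgeR, with no role. The deposited table holds TPM per gene and library, made by the authors. Genes that reached 1 TPM in 3 or more of 6 libraries entered limma 3.58.1 (R 4.3.3) on log2(TPM + 1) with a variance trend. Its p-values are two-sided, adjusted by Benjamini-Hochberg over 14833 genes, with a threshold of 0.05. Log2 fold changes on this scale understate changes of low genes; folds and ratios are of mean TPM. The fit was tested on simulated data. The smallest p of an exact permutation test of 3 against 3 is 0.1, so none was used.

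Whole reads were recovered from the TPM values, with a tolerance of 0.01 reads, by GENCODE 29 exon lengths for 9115 genes and by the smallest fitting length for 5718, where a shared divisor would go unseen. The fit of voom on these reads, added after the data were seen, called 17 chaperones higher and 18 lower. A count of 3 reads on 1 kb corresponds to 0.335 to 0.401 TPM, counting error only. Within groups, pairs of libraries differed by a chi-square per gene of 2.38 to 4.50, above counting error. Each library was treated as 1 sample, but this spread does not show that the libraries come from separate cultures.

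The chaperones, lists and rules were chosen with earlier results of these data known. Genes named are core chaperones whatever their values, the 8 largest rises and falls without overlap between groups, up to 4 called genes per role or list and direction, and a set of co-chaperones; remaining members were added after their values were seen. Some genes that meet these rules are not reported here. Role groups were set by hand from textbook knowledge. GENCODE 29 (GRCh38) served for lengths, exon overlaps and shared 50-base stretches, and RefSeq GRCh38.p14 for promoter windows; neither is the build of the files. Alternatives changed the pseudocount (0.1), the filter (none, or a mean of 5 TPM), the scaling (quantile, or median-ratio), the trend (none), the genes (no mitochondrially encoded ones), added a replicate block or left out 1 library at a time.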

Additional observations from a re-analysis of the deposited data

How the results depend on the processing

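Of all tested genes 5319 were higher and 2640 lower in Dox, with 4010 lower under median-ratio rescaling. Quantile normalization gave 3536 higher and 4348 lower, 23 of the lower ones chaperones. For the co-chaperone list, median-ratio rescaling gave 6 higher and 39 lower and quantile normalization 38 lower, and leaving out 1 library gave 7 to 11 higher. DNAJA1 turned to -0.0099 after median-ratio rescaling (adjusted p = 0.826) and DNAJB6 to -0.17 after quantile normalization (adjusted p = 0.0361). Same-numbered libraries did not deviate together (correlations of -0.0085, 0.0633 and 0.0035 for numbers 1, 2 and 3). With 3 libraries per group, such values cannot exclude that same-numbered libraries were handled together. With a replicate block 5223 genes were higher and 2618 lower, 17 and 14 of them chaperones, with DNAJA1 and HSPA6 no longer called. The causes of these shifts were not tested. TPM is relative within a library, so a change in total RNA per cell could not be measured, and all levels are of RNA, not protein.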

Other observations

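Next to HSPB11, and 44 bases away in RefSeq GRCh38.p14, lies LRRC42, which averaged 234 ± 12.3 TPM in Dox and 119 ± 0.954 TPM in Ctrl (SD, n = 3 each), a 1.97-fold rise (0.97 ± 0.04, adjusted p = 1.3e-06). HSPB11 rose 3.21-fold in the same libraries. The pair was chosen after their values were seen.

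The ER chaperones kept out of the set moved in both directions. HSPA5 (BiP), the HSP70 of the ER, had 3676, 3743 and 3650 TPM in Dox, against 2965, 3003 and 2808 TPM in Ctrl (0.34, adjusted p = 8.8e-05), and its partner DNAJB11 rose as well (0.19, adjusted p = 0.00563). The DNAJB11 call ended after median-ratio rescaling (0.08, adjusted p = 0.137), where HSPA5 stood at 0.22 (adjusted p = 0.00483). DNAJC3 (-0.23, adjusted p = 0.0116) and DNAJC10 (-0.26, adjusted p = 0.00442) fell, and DNAJB9 did not pass (0.19, adjusted p = 0.0562).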
